A study of Mus musculus with 3 samples.

Results

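Genes of protein folding in the endoplasmic reticulum (ER), of the unfolded protein response (UPR) and of ER-associated degradation (ERAD) were compared between peptide-resistant clones and untreated cells. The members were 36 mouse genes of these systems, matched by gene symbol in a table of raw read counts. Of these, 35 were among the 22976 genes in the table and 1, Derl3, was not analysed here. All 35 passed the filter on low counts, and 13705 genes were tested in all.

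Messenger RNA was sequenced from NSC-34, a mouse line that descends from neuroblastoma cells fused to embryonic spinal cord cells rich in motor neurons. The control was 1 library of wild-type cells without treatment. The other group held 2 libraries, each of a clone that became resistant to PR20 spontaneously, called clone 1 and clone 2, with 10 µM PR20 for 3 weeks given as treatment. PR20 is a synthetic chain of proline-arginine repeats, of the kind made from the C9ORF72 repeat expansion in amyotrophic lateral sclerosis. All libraries shared the line and the growth medium with serum. The labels do not say whether the peptide was present when RNA was taken, and each resistant library stands for 1 clone.

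The libraries held between 11307034 and 11700755 counts. Levels are CPM, which are counts scaled to library size, corrected by TMM factors for differences in library composition. The control has 1 value and no error, and the values of the clones are given in the order clone 1, clone 2. Among the motor neuron markers, Chat had 7 reads in the control and 0 in the clones, and Mnx1 had between 1 and 3 reads. These defining markers of the labelled cell type were thus absent or nearly so, but others on the list were present in the control. Nefh, a neurofilament gene, had 322 CPM in the control against 17.2 and 18.4 CPM in the clones, and Ache, Slc18a3, Isl2 and Isl1 lay between 5.98 and 46.0 CPM in the control and were lower in both clones. Prph, a neuronal intermediate filament gene, had 862 CPM in the control library against 938 and 899 CPM in the clones. Of the sympathetic genes, Hand2 had 409 CPM in the control library against 345 and 312 CPM in the clones, whereas Th had 112 against 7.65 and 7.27 CPM and Chga 61.7 against 0.267 and 0.180 CPM. Of the tested genes on each marker list, 5 of 6 motor neuron genes and 8 of 8 sympathetic genes (median log2 fold change -2.25) fell. Of the fibroblast genes, 2 of 7 rose and 1 fell, and the 3 glial genes did not pass the test. Over all genes tested, 25.8% were called lower and 24.3% higher. The summed level of 8 fibroblast genes was 90.7 CPM in the control and 95.6 and 123 CPM in clones 1 and 2, and Lum had 1, 3 and 3 reads. The 7 glial genes in the table summed to between 6.28 and 7.90 CPM. Of these, Sox10 had 0 reads in the control and 3 and 8 reads in the clones. The part of these shifts in the results below was not tested.

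The ER folds secreted and membrane proteins. Nascent chains enter through the SEC61 channel, are bound by the HSP70 chaperone BiP and by the lectins calnexin and calreticulin, and receive disulfide bonds from protein disulfide isomerases. Chains that do not fold are drawn back into the cytosol and degraded, which is ERAD. When unfolded chains accumulate, the sensors IRE1, ATF6 and PERK start the UPR, in which ATF6 and spliced XBP1 switch on chaperone and ERAD genes. Neurons and neuroendocrine cells depend on this system because they export peptides and membrane proteins. Counts per gene do not separate spliced from unspliced Xbp1 transcripts.

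The clones carried less RNA of many ER folding genes, by small amounts. Of the 35 members, 20 fell and 1 rose, and 14 did not pass the test (edgeR's quasi-likelihood test, adjusted p under 0.05). Among all genes tested, 25.8% were called lower and 24.3% higher. Among the 7893 genes that averaged 20 CPM or more, a range that holds all 35 members, 24.5% were lower and 35.7% higher. The median log2 fold change of the members was -0.18, against 0.002 over all genes tested and 0.06 over those with at least 20 CPM. The members were chosen with earlier results of these data known, so the contrast with all genes is a description only. The differences ran from a log2 fold change of -0.81 for Sdf2l1 to 0.30 for Ern1. Only Sdf2l1 and Derl1 were at least 1.5-fold lower and called, a size that 14.5% of all genes tested reached, and 7 of the 21 called members differed by less than 1.2-fold.

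In CPM, both clones lay below the control for 21 members and above it for 10, and the control lay between them for 4. Over all genes tested, both clones lay below for 44.5% and above for 44.0%. The test rests on a single control, so its error comes from the spread between the clones alone and assumes that the control varies like them. Separate cultures are not stated for the clones, so the p-values reflect only how these libraries vary, which may be technical. The number of calls depended on the test. DESeq2 called 11 members lower and 0 higher, with 0 higher and 15 lower at an unadjusted p under 0.05, which 14.9% of all genes met as lower (2043 genes, with 2192 higher). In the DESeq2 fit, 10.6% of all genes were called lower and 11.5% higher. Without the filter on low counts, edgeR called 0 members in either direction, with 16 lower and 3 higher at an unadjusted p under 0.05. Over the 22976 genes of that fit 4 were called, and 3417 (14.9%) were lower and 3670.0 higher at an unadjusted p under 0.05. DESeq2 ended 10 of the 21 edgeR calls. Its adjusted p was 0.104 for Pdia3, 0.105 for Dnajb9, 0.127 for Creld2, 0.217 for Sec63 and 0.262 for Sec61b, and the other 5 (Atf6, Ern1, Wfs1, Edem2 and Os9) are given with those genes.

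**Figure D1:**
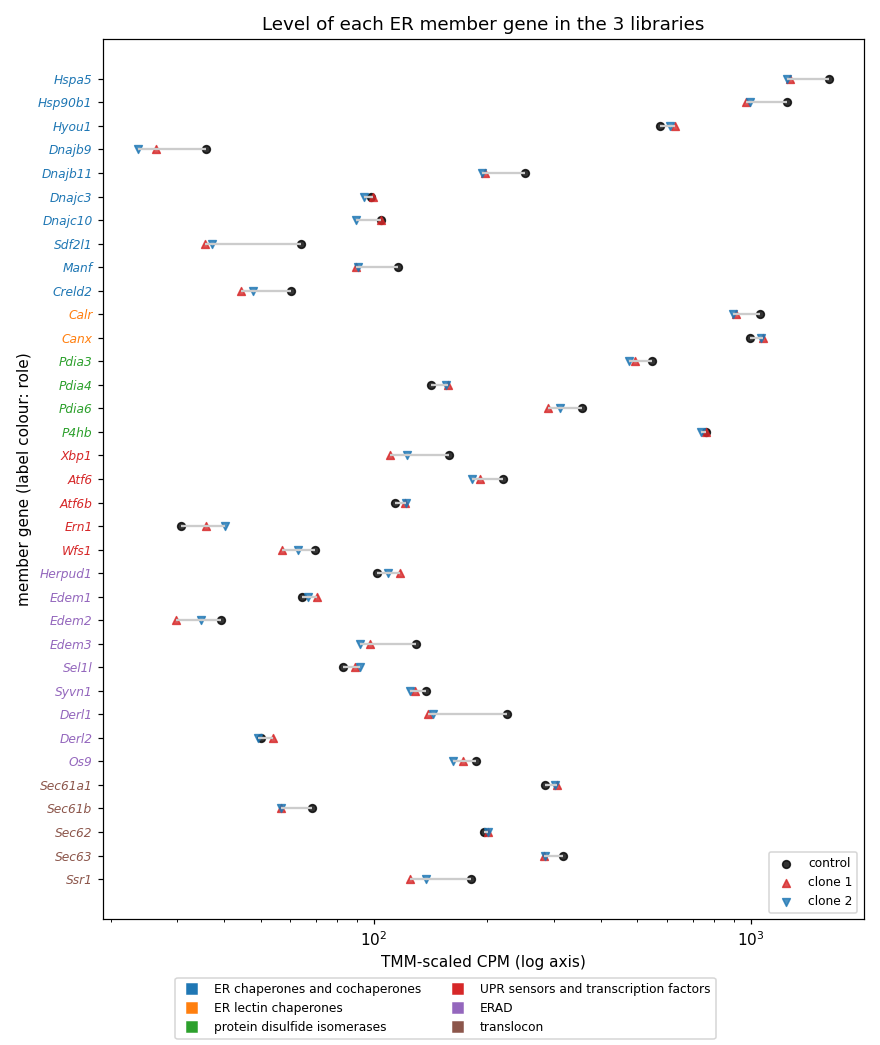
TMM-scaled CPM on a log axis for each of the 35 members in the control (circles), clone 1 (upward triangles) and clone 2 (downward triangles), with gene labels coloured by role. For 21 members, among them Hspa5, Sdf2l1 and Derl1, both triangles lie left of the circle, and for 10, among them Canx and Ern1, both lie right of it.

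Many ER chaperone genes share a promoter element that binds ATF6 together with the CCAAT-binding factor NF-Y, the ER stress response element (ERSE). RefSeq promoters on GRCm38.p6, 250 bases before to 50 after the start, were at hand for 31 of the 36 members. The exact element, CCAAT followed by any 9 bases and CCACG, searched on both strands, was present in 9 of these 31 promoters (29.0%) and in 0.137% of the promoters of 27025 genes. The shorter ERSE-II, ATTGG followed by any base and CCACG, was in 2 of the 31 (6.45%) and in 0.0444% of all. The CCAAT letters alone, which are part of ERSE and in reverse of ERSE-II, were in 24 of 31 (77.4%) and in 41.1% of all. TGACGTGG, the core of the UPR element bound by XBP1, was in 0 of 31 and in 0.714% of all, and TGATGNAAN, the element bound by C/EBP and ATF4, was in 1 of 31 and in 4.50% of all. A match describes the letters only. Below are stretches around the element for 4 members that fell and 3 that were not called, 5′ to 3′ on the strand of the gene. Capitals mark the fixed letters of the element, which read CGTGG and ATTGG where it lies on the opposite strand.
Hspa5 (chr2:34772005-34772063, plus strand): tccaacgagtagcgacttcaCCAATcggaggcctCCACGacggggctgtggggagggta
Hsp90b1 (chr10:86705513-86705571, minus strand): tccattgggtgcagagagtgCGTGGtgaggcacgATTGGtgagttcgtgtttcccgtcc
Calr (chr8:84847055-84847113, minus strand): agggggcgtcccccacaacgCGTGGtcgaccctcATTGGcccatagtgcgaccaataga
Creld2 (chr15:88819500-88819558, plus strand): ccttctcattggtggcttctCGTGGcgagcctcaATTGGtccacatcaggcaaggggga
Canx (chr11:50325780-50325838, minus strand): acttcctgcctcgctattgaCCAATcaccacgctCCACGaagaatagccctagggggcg
Dnajc3 (chr14:118937807-118937865, plus strand): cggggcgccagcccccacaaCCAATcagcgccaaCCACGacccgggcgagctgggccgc
Herpud1 (chr8:94386357-94386407, plus strand): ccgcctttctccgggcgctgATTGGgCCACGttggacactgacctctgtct
The first 4 genes encode the chaperones BiP, GRP94 and calreticulin and the secreted factor CRELD2. The others encode calnexin, the BiP cochaperone p58IPK and HERP, with ERSE-II in the last. Hsp90b1 held a second ERSE further from its start.

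Members fell with and without these letters (all genes tested: 25.8% lower, 24.3% higher). Of the 10 tested members with ERSE or ERSE-II, 6 fell and 0 rose, and their median log2 fold change was -0.24. Of the 20 with a promoter in the table and neither element, 11 fell and 1 rose, with a median of -0.16. The ERSE or ERSE-II members reached from -0.38 to 0.15 and the rest from -0.81 to 0.30, so the ranges overlapped. Sdf2l1, the member with the largest fall, had no exact match of either element. This comparison carries no test.

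Chaperone and cochaperone genes had the largest summed difference of the 6 roles. Of 10 genes, 7 fell and 0 rose (all genes tested: 25.8% lower, 24.3% higher). Their summed level was 4157.5 CPM in the control, 3460.1 CPM in clone 1 and 3430.9 CPM in clone 2, which is a drop of 17.1%. Hspa5, which encodes BiP, the main ER HSP70 and the most abundant member, had 1610.35 CPM in the control against 1268 and 1248 CPM in the clones (19377, 14260 and 13901 reads). The log2 fold change was -0.36 ± 0.05 (SE; edgeR adjusted p = 1.13e-05), and both clones were below the control. Hsp90b1, the gene of the ER HSP90 GRP94, had 1244 CPM in the control against 968 and 996 CPM in the clones (log2 fold change -0.34 ± 0.05, SE; edgeR adjusted p = 2.03e-05), and both clones were below it. Its exons share 415 bases with a pseudogene on the opposite strand, which had between 49 and 65 reads.

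Of the less abundant chaperone genes, 5 fell. Sdf2l1, whose product joins the ERDJ3 cochaperone, fell from 63.8 CPM to 35.7 and 37.3 CPM, a drop of 42.9% (log2 fold change -0.81 ± 0.08, SE; edgeR adjusted p = 8.47e-07). Its partner Dnajb11, which encodes ERDJ3, fell from 252 CPM to 197 and 193 CPM, a drop of 22.6%. Dnajb9, whose product ERDJ4 guides BiP to IRE1, fell from 35.9 CPM to 26.4 and 23.6 CPM, a drop of 30.3%. Both clones lay below the control for each of these genes.

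A pair of genes that encode secreted ER stress proteins fell with them. Manf, a trophic factor that binds BiP, had 116 CPM in the control against 89.8 and 90.5 CPM in the clones (log2 fold change -0.36 ± 0.06, SE; edgeR adjusted p = 1.81e-04). Its exons share 146 bases with Dcaf1 on the other strand. Creld2 fell from 60.1 CPM to 44.5 and 47.8 CPM (log2 fold change -0.38 ± 0.08, SE; edgeR adjusted p = 0.00122). Creld2 lies on chromosome 15, where the median log2 fold change of 550 tested genes was -0.28, and the part of the chromosome in this value was not tested.

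The other chaperone genes were not called. Hyou1, a nucleotide exchange factor for BiP, had 573 CPM in the control against 627 and 610.1 CPM in the clones (log2 fold change 0.11 ± 0.05, SE; edgeR adjusted p = 0.0756). Dnajc3, which encodes p58IPK, had 98.1 CPM in the control against 99.6 and 94.2 CPM in the clones. Dnajc10, an ER disulfide reductase that works with BiP in ERAD, had 104 CPM in the control and in clone 1 and 89.6 CPM in clone 2. The control lay within the range of the clones for Dnajc3 and Dnajc10.

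Of the 2 lectin genes, which hold glycoproteins until they fold, 1 fell and 0 rose (all genes tested: 25.8% lower, 24.3% higher). Calr, which encodes the soluble lectin calreticulin, had 1056 CPM in the control against 914 and 895 CPM in the clones (log2 fold change -0.22 ± 0.05, SE; edgeR adjusted p = 9.89e-04). Canx, the gene of its membrane-bound relative calnexin, had 996 CPM in the control against 1075 and 1063 CPM in the clones (log2 fold change 0.10 ± 0.05, SE; edgeR adjusted p = 0.0893). Both clones were below the control for Calr and above it for Canx, and the difference between these responses was not tested.

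Of the 4 disulfide isomerase genes, 2 fell and 0 rose (all genes tested: 25.8% lower, 24.3% higher). Pdia6 fell from 357 CPM to 289 and 312 CPM, a drop of 15.8%. Pdia3, whose product ERp57 oxidises glycoproteins held by the lectins, fell from 545 CPM to 492 and 474 CPM, a drop of 11.5%. P4hb, the founding disulfide isomerase gene, had 759 CPM in the control against 762 and 738 CPM in the clones. Pdia4, which encodes ERp72, had 142 CPM in the control against 157 and 155 CPM in the clones (edgeR adjusted p = 0.0587). The abundant P4hb was level, and both clones were above the control for Pdia4.

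**Figure D2:**
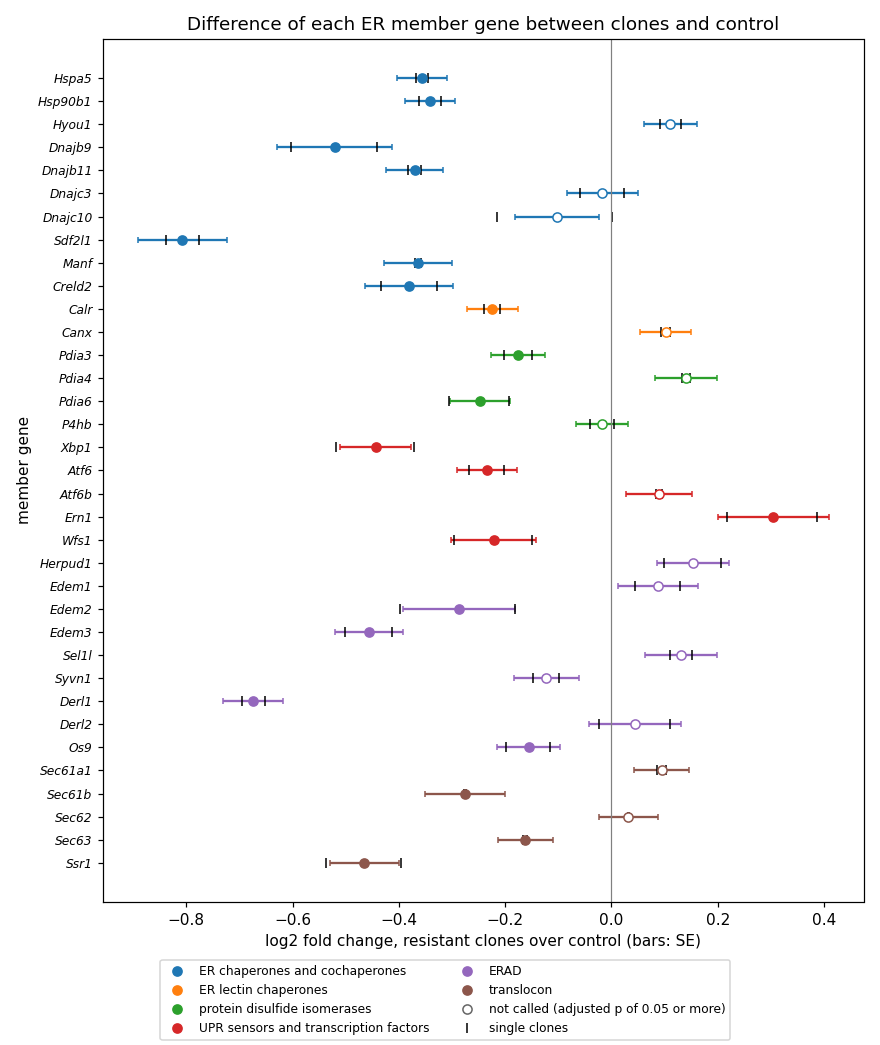
Log2 fold change of the clones over the control for each member, grouped and coloured by role, with the edgeR SE as bars, filled points for called members and black ticks for the single clones. Called members lie left of 0 except Ern1 at 0.30, and Sdf2l1 at -0.81 and Derl1 at -0.67 lie furthest left.

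Among the 5 genes of UPR signalling, 3 fell and 1 rose (all genes tested: 25.8% lower, 24.3% higher). Xbp1, the transcription factor activated by splicing, had 158 CPM in the control against 110.1 and 122.0 CPM in the clones (log2 fold change -0.44 ± 0.07, SE; edgeR adjusted p = 4.29e-05). Atf6, the sensor whose cleaved fragment is a transcription factor, had 219.6 CPM in the control against 191 and 182 CPM in the clones (log2 fold change -0.23 ± 0.06, SE; edgeR adjusted p = 0.00254). The adjusted p of Atf6 was 0.0972 by DESeq2 and ranged from 1.32e-04 to 0.131 over the alternatives. Both clones were below the control for both genes. Ern1, which encodes IRE1, the kinase and nuclease that splices Xbp1, was the only member called higher, from 30.7 CPM to 35.8 and 40.2 CPM. Its log2 fold change was 0.30 ± 0.10 (SE; edgeR adjusted p = 0.0236), with an adjusted p of 0.378 by DESeq2 and a range of 0.0117 to 0.378 over the alternatives.

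Wfs1, which encodes the ER membrane protein wolframin, fell from 69.8 CPM to 56.8 and 62.9 CPM (edgeR adjusted p = 0.0312). The adjusted p was 0.41 by DESeq2 and 0.0512 by limma-voom, and ranged from 0.00894 to 0.41 over the alternatives. Atf6b, the paralog of Atf6, was not called, with 114 CPM in the control and 121 CPM in each clone. By edgeR, Xbp1, Atf6 and Wfs1 thus fell, Ern1 rose and Atf6b did not pass, and of these 4 calls DESeq2 made that of Xbp1 alone.

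Of 9 ERAD genes in the table, 4 fell and 0 rose (all genes tested: 25.8% lower, 24.3% higher). Derl1, which encodes a channel protein of retrotranslocation, showed the largest difference, from 226 CPM in the control to 139 and 143 CPM in the clones (2714, 1565 and 1598 reads). The log2 fold change was -0.67 ± 0.06 (SE; edgeR adjusted p = 7.15e-08). Derl1 lies on chromosome 15 with its median of -0.28, and the part of the chromosome was not tested. Its relative Derl2 had 50.1 CPM in the control against 54.1 and 49.3 CPM in the clones, with the control between them. The exons of Derl2 share 231 bases with Mis12 on the other strand.

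Of the mannose-trimming EDEM genes, whose products mark glycoproteins for ERAD, Edem2 and Edem3 were called lower by edgeR. Edem3 fell from 129.6 CPM to 97.3 and 91.6 CPM, a drop of 27.1% (edgeR adjusted p = 2.40e-05). Edem2 fell from 39.3 CPM to 29.8 and 34.7 CPM (edgeR adjusted p = 0.0332). The adjusted p was 0.422 by DESeq2 and 0.0528 with RLE size factors, and ranged from 0.00926 to 0.422 over the alternatives. Edem1 had 64.6 CPM in the control against 70.6 and 66.6 CPM in the clones and was not called. So both clones were below the control for Edem2 and Edem3 and above it for Edem1. The difference between these genes was not tested.

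The ubiquitin ligase complex of ERAD had smaller differences. Os9, the lectin that delivers glycoproteins to the ligase, fell from 186 CPM to 172 and 162 CPM, a drop of 10.2% (edgeR adjusted p = 0.0375). The adjusted p was 0.369 by DESeq2 and 0.0508 with RLE size factors, and ranged from 0.0132 to 0.369 over the alternatives. Syvn1, the gene of the ligase HRD1, had 138 CPM in the control against 129 and 124 CPM in the clones (edgeR adjusted p = 0.107). Sel1l, the gene of its adaptor, had 82.6 CPM in the control against 89.1 and 91.7 CPM in the clones (edgeR adjusted p = 0.124). Herpud1, a scaffold gene of the complex, had 102 CPM in the control against 117 and 109 CPM in the clones (edgeR adjusted p = 0.0697). The ligase gene was lower and its partners Sel1l and Herpud1 were higher in both clones, without passing the test.

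In the translocon, 3 of 5 genes fell and 0 rose (all genes tested: 25.8% lower, 24.3% higher). Ssr1, which encodes the alpha subunit of the translocon-associated TRAP complex, had 181 CPM in the control against 125 and 137 CPM in the clones (log2 fold change -0.46 ± 0.06, SE; edgeR adjusted p = 1.92e-05). Sec61b, a small channel subunit, fell from 68.6 CPM to 56.8 and 56.6 CPM, a drop of 17.4%. Sec63, which recruits BiP to the channel, fell from 317 CPM to 283 and 284 CPM, a drop of 10.6%. The pore gene Sec61a1 had 285 CPM in the control against 306 and 302 CPM in the clones, and Sec62, its partner in post-translational import, had 196 CPM against 201 and 200.4 CPM. Neither was called, and both clones were above the control for both genes.

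Some members were also read by the factor that is usually placed above them. Of 8 genes usually placed under ATF6, 4 fell (Hspa5, Hsp90b1, Calr and Creld2) and 0 rose, and the median log2 fold change was -0.06. The other 4 (Pdia4, Hyou1, Herpud1 and Sel1l) lay above the control in both clones without passing. Of 7 genes usually placed under spliced XBP1, 4 fell (Dnajb9, Dnajb11, Sec61b and Ssr1) and 0 rose, with a median of -0.28. Over all genes tested, 25.8% were called lower and 24.3% higher. Most members are on neither list, so the medians describe the listed genes only. The difference between the lists was not tested.

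In total the 35 members took 10669.5 CPM in the control and 9531 and 9450.3 CPM in the clones, a drop of 11.0%. Hspa5, Hsp90b1 and Calr, the 3 members of the highest control CPM, made up 65.0% of this difference, and without them the sum was 6.10% lower. By role, the drop was 17.1% for chaperones, 13.0% for ERAD, 11.9% for UPR signalling, 6.86% for the translocon, 6.31% for disulfide isomerases and 3.86% for the lectins. In every role both clones summed below the control. These sums carry no test. In bulk RNA, fewer cells of a kind and less RNA per cell cannot be told apart.

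**Figure D3:**
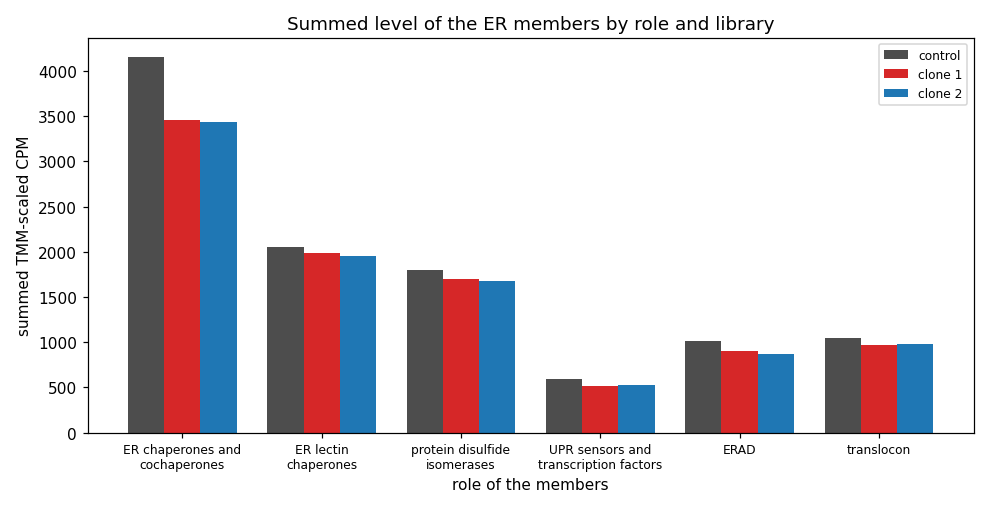
Summed TMM-scaled CPM of the members of each role in the control, clone 1 and clone 2, on an axis from 0. Chaperones and cochaperones show the largest gap, from 4157.5 CPM in the control to 3460.1 and 3430.9 CPM in the clones.

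Compared per length, as CPM per kilobase of annotated exon, the members spanned a wide range in the control. The length takes in every annotated exon, whichever transcripts the cells make, so the order of genes may depend on it. Other lengths were not tested. Hspa5 led with 381, followed by Calr with 367, Hsp90b1 with 309, P4hb with 265 and Canx with 212 CPM per kilobase. In the clones this order changed at the top: Calr had 317 and 311 CPM per kilobase and Hspa5 had 299.9 and 295 CPM per kilobase. The lowest were Sel1l with 9.66, Derl2 with 6.23 and Ern1 with 3.76 CPM per kilobase in the control. Xbp1 had 48.6 and Atf6 23.8 CPM per kilobase, while the less abundant chaperone genes reached down to 14.1 CPM per kilobase for Dnajb9.

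The clones were also compared with each other. None of the 35 members differed by more than 1.2-fold between clone 2 and clone 1, and so none by more than 1.5-fold. Among all genes tested, 20.8% passed 1.2-fold and 8.19% passed 1.5-fold, and among those with at least 20 CPM, 2.64% passed 1.2-fold, so the count of 0 members is near that share. The ratio of clone 2 to clone 1 was furthest from 1 in Edem2 at 1.16 (95% exact interval 1.002 to 1.35, counting error only) and Dnajc10 at 0.860 (0.790 to 0.937). For 7 members this interval left out 1: Hsp90b1, Dnajc10, Pdia6, P4hb, Xbp1, Edem2 and Ssr1. The interval narrows as counts rise, and Hsp90b1, with 10877 and 11100 reads in the clones, had a ratio of only 1.03. The share of all genes tested with such an interval was not computed, so this count describes the listed members only. With 1 library per clone there is no test of the clones against each other.

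The authors' deposited table, made with DESeq2 from the same 3 libraries, lists all 35 members. There, in the authors' deposited table, 11 members had an adjusted p under 0.05, all of them lower, against 9.77% of its 13906 genes called lower and 10.0% called higher. These 11 were also called lower by edgeR: Hspa5, Hsp90b1, Dnajb11, Sdf2l1, Manf, Calr, Pdia6, Xbp1, Edem3, Derl1 and Ssr1. For Hspa5 the authors' deposited table gives a log2 fold change of -0.37 with an SE of 0.063, and for Derl1 -0.68 with an SE of 0.11. For Ern1 the authors' deposited table gives 0.29 with an adjusted p of 0.455.

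Other ER genes were called in both directions. Of 166 tested genes on 7 lists of other ER genes, 63 fell (38.0%, against 25.8% of all genes tested) and 42 rose (25.3%, against 24.3%), and the median log2 fold change was -0.11. Their summed level was 2.53% lower in the clones. Over all genes that averaged 20 CPM or more, 24.5% were lower and 35.7% higher. The 7 lists were also chosen with earlier results of these data known. Among 35 other folding genes, 15 fell and 9 rose. Clgn, a calnexin relative, fell from 91.2 CPM to 29.5 and 33.1 CPM, Fkbp14, a prolyl isomerase gene, from 49.2 CPM to 15.1 and 14.4 CPM, and the thioredoxin gene Tmx4 from 134.6 CPM to 66.1 and 61.0 CPM. Serpinh1, the collagen chaperone gene, rose from 162 CPM to 267 and 278 CPM, the glucosidase gene Mogs from 137 CPM to 222 and 224 CPM, and Mesd, a chaperone gene of LDL receptor relatives, from 80.4 CPM to 127 and 120.2 CPM. Serpinh1 and Mesd lie on chromosome 7, where the median log2 fold change was 0.26, and the part of the chromosome was not tested. Clgn, Fkbp14 and Tmx4, with log2 fold changes of -1.54, -1.74 and -1.08, differed by more than any member.

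**Figure D4:**
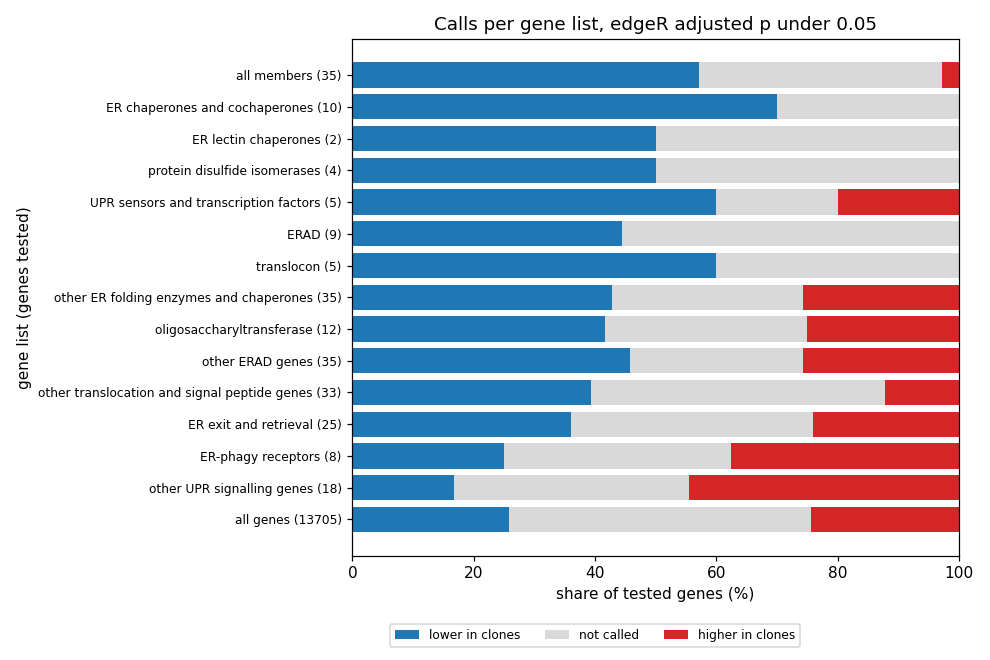
Share of tested genes called lower (blue), not called (grey) and higher (red) in the clones for the members, their roles, the 7 other ER lists and all genes, with the number tested in parentheses. Of the members 20 of 35 are lower and 1 is higher, while of other UPR signalling genes 3 of 18 are lower and 8 higher. Of all genes tested, 25.8% are lower and 24.3% higher.

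Other UPR signalling genes had 8 higher (44.4%) and 3 lower (16.7%) of 18, with a median log2 fold change of 0.13. Over all genes tested, 24.3% were higher and 25.8% lower, and over those with at least 20 CPM, 35.7% and 24.5%. Nfya, a subunit of the CCAAT-binding factor NF-Y, rose from 85.0 CPM to 145 CPM in both clones (log2 fold change 0.77 ± 0.06, SE; edgeR adjusted p = 6.78e-08). Trib3, a pseudokinase gene induced by ATF4, rose from 72.0 CPM to 112 and 110.2 CPM, and Ppp1r15a, which encodes the phosphatase subunit GADD34, from 56.3 CPM to 90.8 and 81.1 CPM. The latter lies on chromosome 7. The ER transcription factor gene Creb3l2 fell from 203 CPM to 100.6 and 89.5 CPM. Mbtps2, whose product is a protease that cleaves ATF6, fell from 85.7 CPM to 52.7 and 55.9 CPM, and Eif2ak3, the PERK gene, from 77.5 CPM to 66.7 and 68.3 CPM. Mbtps2 lies on chromosome X, where the median was -0.22. So of the 3 sensor genes of the UPR, Atf6 and Eif2ak3 fell and Ern1 rose by edgeR. DESeq2 made none of these 3 calls, with an adjusted p of 0.429 for Eif2ak3, whose alternatives ranged from 0.0134 to 0.429.

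Of 35 other ERAD genes, 16 fell (45.7%) and 9 rose (25.7%), against 25.8% and 24.3% of all genes tested. The ligase gene March6 fell from 374 CPM to 281 and 272 CPM, Fam8a1, an organiser gene of the HRD1 complex, from 79.5 CPM to 52.7 and 50.8 CPM, and the lectin gene Erlec1 from 90.3 CPM to 64.8 and 64.0 CPM. Aup1, whose product recruits a ubiquitin-conjugating enzyme, rose from 101 CPM to 157 and 153 CPM, the cytosolic ligase gene Stub1 from 189 CPM to 267 and 245 CPM, and Bag6, a chaperone gene for stray membrane proteins, from 375 CPM to 482 and 467 CPM. March6 lies on chromosome 15. The list as a whole had a median log2 fold change of -0.12.

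Other genes of import and signal peptide removal had 13 lower (39.4%) and 4 higher (12.1%) of 33, against 25.8% and 24.3% of all genes tested. Mmgt1, a subunit gene of the ER membrane complex on chromosome X, fell from 105 CPM to 51.9 and 57.6 CPM, the signal peptidase gene Sec11c from 45.4 CPM to 24.6 and 24.1 CPM, and Emc2 on chromosome 15 from 89.8 CPM to 58.1 and 58.3 CPM. Tram2 rose from 12.8 CPM to 23.1 and 20.6 CPM, Srprb, a signal recognition particle receptor gene, from 73.6 CPM to 97.1 and 92.6 CPM, and the signal peptidase gene Sec11a on chromosome 7 from 80.5 CPM to 97.3 and 106 CPM. The paralogs Sec11a and Sec11c thus moved in opposite directions. Of 12 oligosaccharyltransferase genes, which attach N-glycans, 5 fell and 3 rose (all genes tested: 25.8% lower, 24.3% higher). The share of these 12 that rose was near that of all genes tested. The values of the oligosaccharyltransferase genes stayed within a log2 fold change of -0.48 for Magt1, on chromosome X, and 0.22 for Rpn1. Ostc fell from 130.5 CPM to 96.3 and 94.5 CPM, and Tusc3 from 107 CPM to 88.9 and 91.7 CPM, while Krtcap2 rose from 125 CPM to 146 and 145 CPM and Stt3b, a catalytic subunit gene, from 336 CPM to 364 and 388 CPM.

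Of 25 genes of ER exit and retrieval, 9 fell and 6 rose (all genes tested: 25.8% lower, 24.3% higher). The share that rose was near that of all genes tested. The coat genes Sec24d and Sec23a fell from 88.2 CPM to 48.5 and 47.7 CPM and from 174 CPM to 112 and 104 CPM, and the coat GTPase gene Sar1a from 158 CPM to 114 and 117 CPM. Ergic1 rose from 195 CPM to 265 and 256 CPM, the cargo receptor gene Lman1 on chromosome 18 from 167 CPM to 207 and 203 CPM, and the coat gene Sec24b from 118 CPM to 140.1 and 141 CPM. The median on chromosome 18 was 0.41. Of 8 ER-phagy receptor genes, whose products lead ER to the lysosome, 2 fell and 3 rose (all genes tested: 25.8% lower, 24.3% higher). Among genes that averaged 20 CPM or more, 24.5% were lower and 35.7% higher, so both ER-phagy counts are near those shares. Rtn3 fell from 333 CPM to 253 and 251 CPM and Retreg1, on chromosome 15, from 9.72 CPM to 4.54 and 6.01 CPM, while Tex264 rose from 38.0 CPM to 52.8 and 53.0 CPM, Retreg3 from 94.2 CPM to 114 and 113 CPM, and Atl3 from 87.3 CPM to 103 and 99.6 CPM. None of the 35 members lies on chromosomes 7, 18 or X, and 2, Creld2 and Derl1, lie on chromosome 15.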

How the data were processed

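Libraries of polyadenylated RNA came from a stranded kit, per the labels' protocols. Per the file headers, the authors counted whole reads per gene with STAR's GeneCounts mode, and these raw counts were used. The RPM columns, which the authors scaled to mapped reads per the file headers, were not used. The authors' deposited table of the clones against the control gives log2 fold changes with SE, p-values and adjusted p-values from DESeq2, per the file headers. STAR 2.5 and Gencode M16 (Ensembl 91) on GRCm38/mm10 are named in the headers, and STAR 2.5.3 in the submitters' processing notes. Which strand was counted is not stated, so the effect of bases shared by overlapping genes on the counts is not known.

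The 22976 genes were filtered with filterByExpr on the groups, which left 13705. Clones and control were compared with edgeR's two-sided quasi-likelihood test on TMM-scaled libraries (legacy option off), with p-values adjusted by Benjamini-Hochberg over all genes tested and a threshold of 0.05. It has 1 residual degree of freedom, moderated across genes. The SE is the log2 fold change over the square root of F. Single-clone log2 ratios used a prior count of 1. Versions were edgeR 4.0.16, DESeq2 1.42.0 and limma 3.58.1 under R 4.3.3. A count of 3 corresponds to between 0.249 and 0.269 CPM. Intervals are 95% Clopper-Pearson and cover counting error only. On simulated data for these 13705 genes, edgeR recovered 32% of 50 genes changed 1.2-fold, 72% of those changed 1.5-fold, 88% of those changed 2-fold and 92% of those changed 4-fold. It made 6 false calls, and 2 calls where no gene was changed. The simulation changed no other genes, whereas 50.1% of genes were called in the data. It also drew the control with the same spread as the clones. These figures thus do not give the error rate of the calls reported here.

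Exon lengths, chromosomes and overlaps came from Gencode M21 on GRCm38, and promoters from RefSeq on GRCm38.p6. The members and lists were chosen with earlier results of these data known. All members were named, and from each list of other ER genes up to 3 called genes per direction with the lowest edgeR p. Alternatives were DESeq2, RLE size factors, raw totals, no filter, a mean CPM of at least 1, the legacy fit, limma-voom, leaving out each clone, and other limits and motif rules. No filter together with the legacy fit was added after seeing the data.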

Additional observations from a re-analysis of the deposited data

How the results depend on the processing

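Across the tests and filters run with composition factors, the log2 fold change of each of the 35 members kept its sign and moved by at most 0.0105. Raw totals, given below, are not among these settings. With either clone left out, each of the 21 called members kept its sign. Calls depended on the test. DESeq2 called 11 members lower and 0 higher (15 lower and 0 higher at an unadjusted p under 0.05), and 1459 genes lower and 1578 higher over the table. It lost 10 of the 21 calls: Dnajb9, Creld2, Pdia3, Atf6, Ern1, Wfs1, Edem2, Os9, Sec61b and Sec63. Without the filter on low counts edgeR called 0 members lower and 0 higher, and 4 genes lower and 0 higher over the table. Adjusted p-values of the 21 members then lay between 0.0719 and 0.279, with 16 members lower and 3 higher, and 3417 genes lower and 3670.0 higher, at an unadjusted p under 0.05. No filter with the legacy fit, chosen after seeing the data, gave 0 members and 0 genes in either direction, with 16 members lower and 3 higher, and 3271 genes lower and 3289 higher, at an unadjusted p under 0.05. The cause was not tested. RLE size factors lost Edem2 and Os9 and limma-voom lost Edem2 and Wfs1. The legacy fit and a mean CPM of at least 1 lost 0 calls. With raw totals in place of composition factors, the median log2 fold change of the members was -0.237 and the log2 ratio of their summed CPM was -0.23, against -0.176 and -0.169. Leaving out a clone gave medians between -0.193 and -0.166 and sums between -0.175 and -0.163. With 1 clone left no test remains, so these are values only. Counting ERSE with 1 mismatch gave 14 members, and 1.72% of all genes, against 9. No paired analysis was possible because the control has 1 library and no number shared with the clones. The single control limits all p-values.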
